A study of Homo sapiens with 2 samples.

Results

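The genes described here encode glycosyltransferases of the Golgi that start, branch, lengthen and cap mucin-type and related sugar chains. Members were taken by symbol, as the genes whose symbol is GALNT, GCNT, B3GNT, B4GALT, FUT, ST3GAL, ST6GAL, ST6GALNAC or ST8SIA followed by a number. This gave 69 of the 29972 genes in the deposited table. The set was chosen with earlier results of these data known, so its shares beside those of all genes are a description only. Polyadenylated RNA was measured in 2 tumours grown from NCI-N87 cells, an established line from a human stomach cancer that carries extra copies of ERBB2 (HER2), under the skin of nude mice, which lack T cells. The untreated group is 1 tumour that received no drug. The T-DM1-refractory group is 1 tumour from an animal given trastuzumab emtansine (T-DM1), a HER2 antibody that carries the microtubule poison DM1, every 3 weeks for 18 weeks. The label calls this tumour refractory to the drug. The host's own stroma, vessels and myeloid cells are of mouse origin; the submitters' processing notes name a human and a mouse genome build without their roles. The labels give no dose, no age of the mice and no statement that material from several animals was pooled or kept apart.

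With 1 library in each group no difference below has a replicate check, and no test across samples was possible. Levels are CPM, counts scaled to the size of the library after TMM normalization. The ratios carry exact 95% intervals that cover counting error only. The comparison shows how these tumours differ in the mRNA of the enzymes. Neither the enzymes nor the sugars were measured. In bulk RNA, fewer cells of a type and less RNA per cell cannot be told apart.

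Mucin-type O-glycans begin when a GALNT enzyme attaches N-acetylgalactosamine to serine or threonine. C1GALT1 adds galactose to make the core 1 structure, GCNT enzymes add a branch, and B3GNT and B4GALT enzymes alternate to build N-acetyllactosamine chains. Fucosyltransferases and sialyltransferases then cap the ends. The caps include the blood group H and Lewis antigens, sialyl-Lewis antigens and sialyl-Tn, many of which are known as markers of gastric epithelium and its tumours.

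A gene was described if at least 1 library reached 1 CPM, and it was called at a 2-fold difference after adding 1 CPM to both values. Of the 69 genes, 49 were described. In the refractory tumour 9 of them were called higher, 10 lower and 30 lay between. Over all 14167 described genes 9.80% were called higher and 11.0% lower, or 20.8% in either direction, against 19 of 49 here. Because a gene can pass the minimum through the library where it is high, both libraries were also required to reach 1 CPM. Then 43 genes were left, with 9 called higher and 7 lower, against 8.55% higher and 7.69% lower over the 12674 genes of the table that pass this filter. The called genes that drop out are GCNT1, ST3GAL6 and ST8SIA1, which passed through the untreated library alone. The median log2 change of the 49 genes was 0.05, against 0.03 over all described genes, and 26 of the 49 had a positive log2. By step of the pathway, all 4 called initiating enzymes were higher and 4 of 5 called chain-extending enzymes were lower, and all 9 of these reached 1 CPM in both libraries.

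The stretch of genome at the transcription start is printed for the largest changes in each direction among called genes for which RefSeq (build GRCh38.p14) lists 1 start: GCNT3 and GALNT10, which were higher, and FUT9 and ST8SIA1, which were lower. They are shown as the start regions of genes with some of the largest differences in the set. Each runs 5′ to 3′ on the strand of the gene from 250 bases before the start to 50 bases after it. Capitals mark a match to the motif TATAAA of core promoters, to the motif GGGCGG bound by Sp factors or to the motif ACGTG of hypoxia response elements, searched on both strands, with overlapping matches kept.
GCNT3, chr15:59611533-59611832 (plus strand): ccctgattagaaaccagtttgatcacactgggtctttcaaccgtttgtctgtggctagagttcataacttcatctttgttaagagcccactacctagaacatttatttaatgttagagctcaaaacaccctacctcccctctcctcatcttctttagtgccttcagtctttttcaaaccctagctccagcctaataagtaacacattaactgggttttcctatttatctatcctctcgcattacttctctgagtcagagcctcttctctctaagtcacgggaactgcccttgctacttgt
GALNT10, chr5:154190483-154190782 (plus strand): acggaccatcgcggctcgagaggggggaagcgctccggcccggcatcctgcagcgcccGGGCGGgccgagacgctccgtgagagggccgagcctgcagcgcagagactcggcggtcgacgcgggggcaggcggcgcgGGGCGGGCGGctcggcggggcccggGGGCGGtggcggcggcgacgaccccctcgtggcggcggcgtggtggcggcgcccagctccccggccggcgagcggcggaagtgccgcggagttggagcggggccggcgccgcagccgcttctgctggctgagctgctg
FUT9, chr6:96015724-96016023 (plus strand): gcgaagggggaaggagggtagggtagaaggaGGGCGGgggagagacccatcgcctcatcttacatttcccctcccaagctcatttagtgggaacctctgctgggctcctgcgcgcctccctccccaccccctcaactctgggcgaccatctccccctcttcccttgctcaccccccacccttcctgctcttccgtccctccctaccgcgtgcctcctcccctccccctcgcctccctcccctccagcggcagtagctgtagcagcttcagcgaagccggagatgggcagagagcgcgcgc
ST8SIA1, chr12:22334658-22334957 (minus strand): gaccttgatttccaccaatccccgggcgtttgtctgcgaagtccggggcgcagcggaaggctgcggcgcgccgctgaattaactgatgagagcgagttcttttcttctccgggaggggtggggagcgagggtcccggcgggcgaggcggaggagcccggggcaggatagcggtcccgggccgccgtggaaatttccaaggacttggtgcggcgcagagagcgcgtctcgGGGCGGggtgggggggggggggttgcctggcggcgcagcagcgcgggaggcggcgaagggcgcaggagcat
The GCNT3 window held none of these motifs, 3 CpG dinucleotides and 42.3% G and C, against a median of 64.3% over the 14780 windows of described genes. The other 3 windows held 16 to 51 CpG dinucleotides and 66.3% to 81% G and C. GGGCGG occurred 4 times in the window of GALNT10 (overlaps included), 1 time in that of FUT9 and 1 time in that of ST8SIA1. RefSeq listed 82 start windows for 49 of the 69 genes. Of these 82, 64.6% held GGGCGG, 22.0% ACGTG and 0 TATAAA. Over the windows of described genes the shares were 64.4%, 25.0% and 6.61% in the same order, and over all 35116 windows 45.0%, 21.4% and 11.5%. The 82 windows include those of members that were not described. In the 63 windows of described members the shares were 66.7%, 20.6% and 0 in the same order. For GGGCGG the share was thus near that of described genes in general. A match is a run of letters, not a shown binding site.

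At the 1 CPM minimum the initiating GALNT enzymes were called in a single direction. Of 11 described members 4 were higher, 0 lower and 7 between, with a median log2 of 0.78. Members under the minimum, given below, were not part of this tally. The FPKM of all GALNT genes, a level per length of transcript, summed to 203 in the untreated and 331 in the refractory tumour. GALNT10, an enzyme that prefers peptides already carrying a sugar, was at 35.7 CPM untreated and 146 CPM refractory, a ratio of 4.09 (95% interval 3.92 to 4.27). Its coding region lies on chromosome 5 from 154190867 to 154416972 (GRCh38) and has 12 coding exons.

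GALNT3, a broad initiating enzyme of epithelia, was at 104 CPM untreated and 219 CPM refractory (ratio 2.11, 95% interval 2.05 to 2.17); it lies on chromosome 2 (165748781 to 165770700). GALNT1, a widely expressed initiator, was at 61.0 and 134 CPM in the same order (ratio 2.204, 95% interval 2.13 to 2.29) and lies on chromosome 18 (35654663 to 35709770). GALNT6, known from its raised levels in carcinomas, was at 19.9 and 45.1 CPM (ratio 2.27, 95% interval 2.13 to 2.42) and lies on chromosome 12 (51354379 to 51379781). These 3 ratios lie close to each other and near the threshold. With the median of their chromosome neighbours subtracted, GALNT3 (log2 1.07 before, 0.97 after) and GALNT6 (1.14 before, 0.96 after) lay just under it, which left 2 called initiating enzymes with little change in the differences themselves. GALNT6 was not called in FPKM either. GALNT10 shares exon bases with MFAP3 (102 and 89.3 CPM) and GALNT6 with SLC4A8 (4.68 and 1.77 CPM).

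Among the 7 between, GALNT7, which also follows on earlier sugars, had the highest CPM in the refractory tumour, at 147 CPM untreated and 226 CPM refractory (ratio 1.54, 95% interval 1.51 to 1.58). GALNT2, GALNT11 and GALNT12 also had ratios above 1, and 8 of the 11 described members in all had a positive log2. GALNT4, the highest of the 7 in the untreated tumour, was at 206 and 195 CPM and GALNT18 at 4.66 and 4.37 CPM, while GALNT5 was the lowest of the group, with a log2 of -0.77. GALNT4 shares exon bases with the read-through gene POC1B-GALNT4 (6.32 and 12.6 CPM), so its reads may be divided between these entries. By FPKM the leading initiator was GALNT4 in the untreated tumour (20.1% of the sum) and GALNT3 in the refractory one (22.1%). GALNT8, GALNT9, GALNT14, GALNT15 and GALNT16 stayed under 1 CPM, with 6 to 34 counts untreated and 0 refractory. The exact 95% interval of 0 counts there reaches 0.0622 CPM. With 0 set to a floor of 3 counts, GALNT8 was at least 8.79-fold lower, GALNT14 6.73-fold and GALNT15 3.88-fold. For GALNT9 the bound was 1.81-fold. For GALNT16 it was 1.55-fold, and for this gene alone of the 5 the interval of the ratio includes 1. The lower direction of these genes is thus outside the tally of described members. GALNT13 had 0 counts in both.

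**Figure D1:**
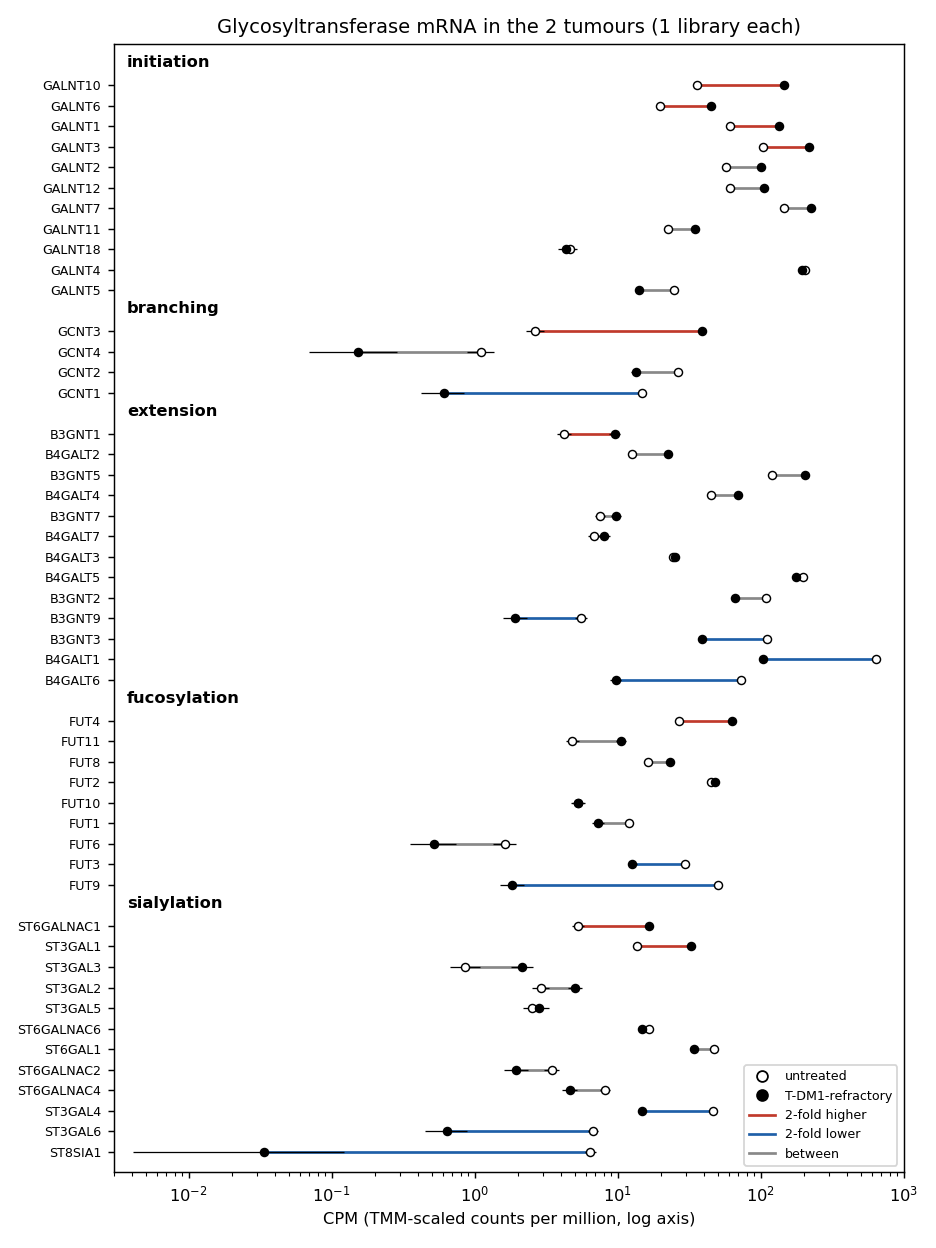
CPM (log axis) of the 49 described glycosyltransferase genes in the untreated (open circles) and T-DM1-refractory (filled circles) tumour, grouped by step and ordered by log2 change, with thin black lines for exact 95% Poisson intervals and coloured lines for calls at 2-fold after adding 1 CPM. Among the called genes GCNT3 has the widest gap towards higher values and ST8SIA1 towards lower ones, and the called GALNT genes all lie to the right in the refractory tumour.

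Among 4 described branching enzymes 1 was higher, 1 lower and 2 between, with a median log2 of -0.91 and a summed FPKM of 11.2 untreated and 23.4 refractory. GCNT3, the core 2 and core 4 enzyme typical of mucin-secreting gut epithelium, was at 2.66 CPM untreated and 38.8 CPM refractory, the highest log2 of the set (3.45) and a ratio of 14.6 (95% interval 12.7 to 17.0). GCNT1, the widely expressed core 2 enzyme, was at 14.8 CPM untreated and 0.607 CPM refractory, 24.4-fold lower (95% interval 17.5 to 35.0). These enzymes, whose coding sequences are 62.9% identical, were the highest and the lowest of their step by log2. GCNT1 passed the minimum through the untreated library alone, and with 1 CPM required in both, 1 branching enzyme was higher and 0 lower.

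GCNT2, which makes the branched I antigen, was at 26.6 and 13.3 CPM, just short of the threshold (log2 -0.94). GCNT4 was at 1.11 CPM (85 counts) and 0.152 CPM (9 counts). Without the added 1 CPM it was 7.33-fold lower (95% interval 3.68 to 16.6), yet it lay between on the scale used. GCNT7 stayed under 1 CPM in both. By FPKM, GCNT3 made up 12.3% of the summed branching enzymes in the untreated tumour and 85.1% in the refractory one. GCNT2 went from 59.2% to 13.9% and GCNT1 from 25.0% to 0.495%. Both GCNT1 (chromosome 9, 76502382 to 76503668) and GCNT3 (chromosome 15, 59618239 to 59619555) have 1 coding exon. GCNT1 shares exon bases with PRUNE2 on the opposite strand, which had 132 and 2 counts. With the counting strand unknown, reads of such pairs cannot be told apart.

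**Figure D2:**
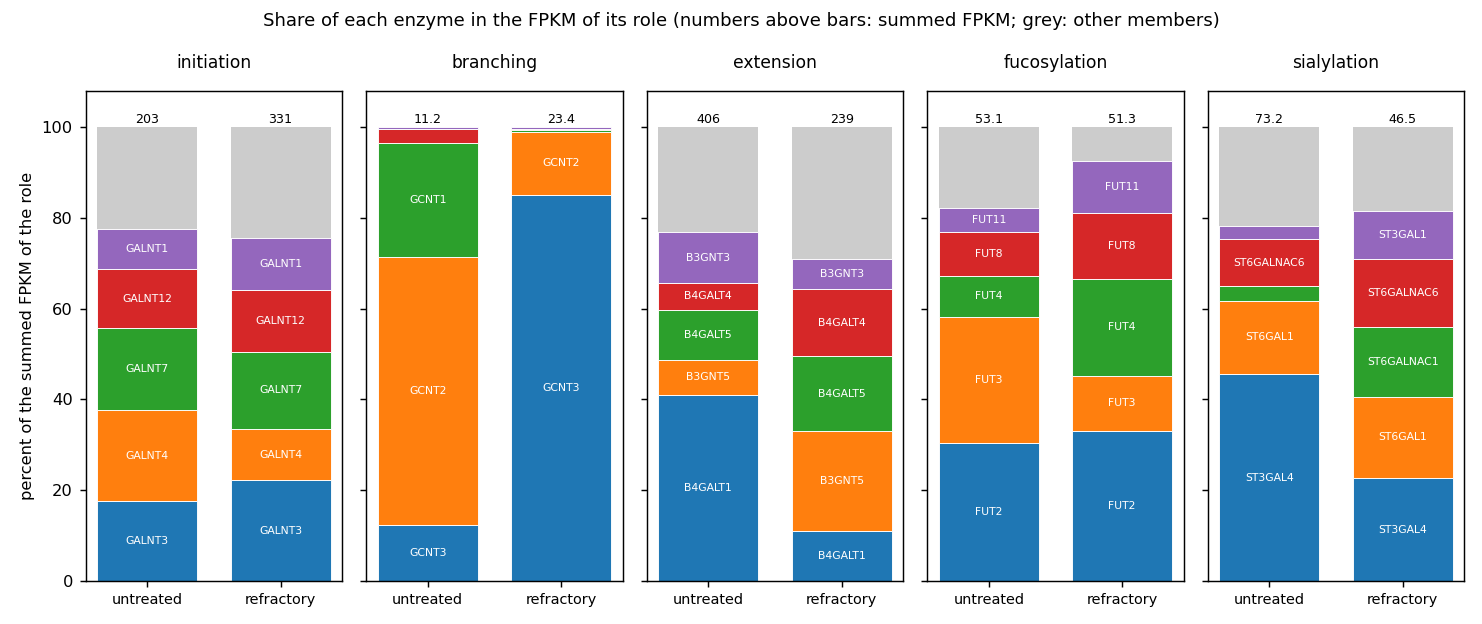
Percent of the summed FPKM (the deposited level per transcript length) that each enzyme takes within its step, in the untreated and the T-DM1-refractory tumour, with the summed FPKM above each bar and members outside the leading 5 in grey. GCNT3 goes from 12.3% to 85.1% of branching, and B4GALT1 from 41.0% to 11.0% of extension.

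Of the chain-extending enzymes 4 were lower, 1 higher and 8 between of 13 described, with a median log2 of 0.05 and a summed FPKM of 406 untreated and 239 refractory. B4GALT1, the main galactosyltransferase of N-acetyllactosamine and also a subunit of lactose synthase, was the member with the highest CPM in the untreated tumour. It was at 645 CPM there and at 103 CPM in the refractory tumour, 6.25-fold lower (95% interval 6.08 to 6.42). Its share of the FPKM of extending enzymes went from 41.0% to 11.0%. B4GALT1 lies on chromosome 9 (33113454 to 33167169, 6 coding exons).

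B4GALT6, a lactosylceramide synthase that starts most glycosphingolipids, was at 72.6 CPM untreated and 9.68 CPM refractory, 7.50-fold lower (95% interval 6.88 to 8.19), and lies on chromosome 18 (31625614 to 31684426). Its nearest relative B4GALT5, which makes the same lipid and is 71.4% identical in coding sequence, was at 197 and 177 CPM (ratio 0.898, 95% interval 0.876 to 0.921). B3GNT3, which extends core 1 chains and makes a sulfated ligand of L-selectin possible, was at 111 and 38.8 CPM, 2.86-fold lower (95% interval 2.73 to 2.998), and lies on chromosome 19 (17807808 to 17812122). B3GNT9, of less known function, was at 5.57 and 1.92 CPM, 2.90-fold lower (95% interval 2.35 to 3.60), and lies on chromosome 16 (67149277 to 67150485). B3GNT9 shares exon bases with C16orf70 on the opposite strand, which was at 26.9 and 26.0 CPM. With the counting strand unknown, reads of this pair cannot be told apart.

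The only extending enzyme called higher was B3GNT1, at 4.22 CPM untreated and 9.54 CPM refractory (ratio 2.26, 95% interval 1.97 to 2.60). RefSeq now lists this gene as B4GAT1, an enzyme of the dystroglycan sugar chain and not of mucins. Its log2 of 1.01 was the nearest of all members to the threshold, and the call was lost with total-count scaling, at a pseudocount of 5 CPM and in FPKM, among other settings. The call of B3GNT9 was lost in the last 2 of these. Among the 8 between, B3GNT5, which makes the lacto-series lipid precursor, had the highest CPM in the refractory tumour (120 and 203 CPM, ratio 1.70, 95% interval 1.66 to 1.75). B3GNT2, the main poly-N-acetyllactosamine enzyme, was at 110 and 65.8 CPM. B4GALT2, B4GALT3, B4GALT4, B4GALT7 and B3GNT7 had log2 values from 0.05 to 0.80. B3GNT4 and B3GNT8 stayed under 1 CPM, and B3GNT6, the core 3 enzyme of normal colon and stomach, had 0 counts in both libraries. In the refractory tumour B3GNT5 took the largest share of the FPKM of this step (22.0%).

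Fucosyltransferases were called lower in 2, higher in 1 and between in 6 of 9 described cases, with a median log2 of 0.01 and a summed FPKM of 53.1 untreated and 51.3 refractory. FUT9, which makes the Lewis x structure, had the lowest log2 of the set (-4.18), with 50.6 CPM untreated and 1.84 CPM refractory, 27.5-fold lower (95% interval 22.8 to 33.6). It lies on chromosome 6 (96203156 to 96204235). FUT3, the Lewis enzyme needed for Lewis a, Lewis b and sialyl-Lewis a (the CA19-9 antigen), was at 29.8 and 12.7 CPM, 2.35-fold lower (95% interval 2.17 to 2.56), and lies on chromosome 19 (5843754 to 5844839). Its call was lost at a pseudocount of 5 CPM. FUT4, another Lewis x enzyme with 1 coding exon, went the other way, with 27.1 CPM untreated and 63.5 CPM refractory (ratio 2.35, 95% interval 2.22 to 2.48). It lies on chromosome 11 (94544134 to 94545726) and shares exon bases with PIWIL4 (6.51 and 12.2 CPM). FUT9 and FUT4 thus differed in direction.

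FUT6, a relative of FUT3, was at 1.62 and 0.523 CPM, 3.10-fold lower without the added 1 CPM (95% interval 2.08 to 4.76) and between on the scale used. FUT5 and FUT7, the leukocyte sialyl-Lewis x enzyme, stayed under 1 CPM in both. The coding sequences of FUT3 and FUT5 are 93.9% identical, of FUT5 and FUT6 90.8% and of FUT3 and FUT6 88.9%, so reads can be divided among these genes and their levels are uncertain. FUT2, the secretor enzyme that makes the H antigen of mucous epithelia, was the most abundant fucosyltransferase by FPKM in both tumours (30.5% and 33.1% of the sum). It was at 45.1 and 48.0 CPM (ratio 1.06, 95% interval 1.01 to 1.12). FUT1, the H enzyme of red cells, was at 12.01 and 7.32 CPM, and FUT8, which adds the core fucose of N-glycans, at 16.3 and 23.4 CPM. FUT11 was at 4.81 and 10.5 CPM, just short of the threshold (log2 0.98). Without the added 1 CPM its ratio was 2.18 (95% interval 1.91 to 2.49). FUT10 was at 5.27 and 5.31 CPM. RefSeq now names FUT10 and FUT11 as protein O-fucosyltransferases.

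Sialyltransferases were described in 12 of 20 cases, with 3 lower, 2 higher and 7 between, a median log2 of -0.30 and a summed FPKM of 73.2 untreated and 46.5 refractory. With 1 CPM required in both libraries the tally turned to 2 higher and 1 lower of 9, since ST3GAL6 and ST8SIA1 passed through the untreated library alone. ST3GAL4, which caps N-acetyllactosamine with sialic acid on the way to sialyl-Lewis x, was at 46.6 CPM untreated and 14.8 CPM refractory, 3.14-fold lower (95% interval 2.92 to 3.39). It lies on chromosome 11 (126406156 to 126414047). By FPKM, ST3GAL4 took 45.6% of the sum of this step in the untreated and 22.6% in the refractory tumour. ST3GAL6, which acts on similar chains, was at 6.74 and 0.641 CPM, 10.5-fold lower (95% interval 7.56 to 15.0), and lies on chromosome 3 (98768441 to 98793761). It shares exon bases with DCBLD2 (0.889 and 0.118 CPM). ST3GAL1, which caps the core 1 structure, was higher, with 13.7 CPM untreated and 32.9 CPM refractory (ratio 2.40, 95% interval 2.23 to 2.59), and lies on chromosome 8. In FPKM it was no longer called. ST3GAL3 was at 0.863 and 2.14 CPM, a ratio of 2.48 without the added 1 CPM (95% interval 1.83 to 3.39) and between on the scale used. ST3GAL2 and ST3GAL5, the GM3 synthase, were between at 2.54 to 5.07 CPM.

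ST6GALNAC1, the enzyme that makes sialyl-Tn, was at 5.31 CPM untreated and 16.6 CPM refractory (ratio 3.13, 95% interval 2.78 to 3.52), and lies on chromosome 17 (76625330 to 76629446). ST6GALNAC2 on the same chromosome was at 3.48 and 1.96 CPM, and ST6GALNAC4 and ST6GALNAC6 were between as well. ST6GAL1, the main alpha-2,6 sialyltransferase of N-glycans, was at 47.3 and 34.1 CPM (ratio 0.720, 95% interval 0.682 to 0.761).

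ST8SIA1, the GD3 synthase of ganglioside synthesis, was at 6.46 CPM (494 counts) in the untreated tumour and had 2 counts in the refractory one, 192-fold lower (95% interval 52.8 to 1587). This is the largest ratio of the described members, although its log2 on the scale with 1 CPM added (-2.85) is smaller than that of FUT9. The ratio rests on 2 counts, which the width of its interval shows. ST8SIA2, ST8SIA4, ST8SIA5 and ST6GALNAC3 stayed under 1 CPM in both, and ST8SIA3, ST8SIA6, ST6GAL2 and ST6GALNAC5 had 0 counts in both.

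The change of each gene was set beside that of its chromosome neighbours. For each described gene the median log2 of the 10 nearest described genes on each side was taken. Of the 19 called members, 12 had a neighbour median of the same sign, against 65.8% of the 2936 called genes of the whole table that have a position. A neighbour median of at least 0.5 in the same direction was found for 2 of the 19, against 18.6%. These were B4GALT1, in a region of chromosome 9 with a neighbour median of -0.64, and B3GNT3 on chromosome 19, with -0.85. For B3GNT3 the log2 was -1.49, and -0.65 relative to its neighbours, which is no longer past 2-fold. GCNT3, GALNT10, FUT4 and GALNT1 were higher in regions with negative neighbour medians (-0.26 to -0.10). GCNT2 lies in a region of chromosome 6 whose neighbour median was 1.08, the highest of the set, while GCNT2 itself was at -0.94. ST8SIA1 (chromosome 12, 22201552 to 22334232) had a neighbour median of -0.49.

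**Figure D3:**
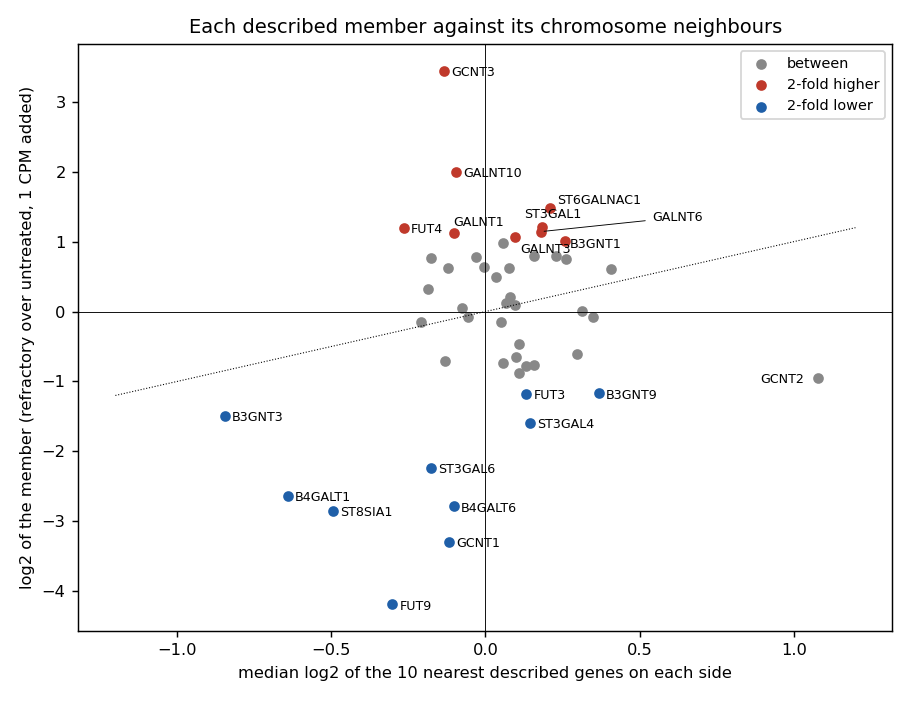
Log2 change of each of the 49 described members (vertical, refractory over untreated, 1 CPM added) against the median log2 of the 10 nearest described genes on each side (horizontal), with the dotted line where both are equal. B3GNT3 and B4GALT1 lie in regions below -0.5, and GCNT2 lies opposite to a region at 1.08.

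Of 25 described genes that supply the sugar donors, 5 were higher, 2 lower and 18 between, with a median log2 of 0.08. The called share was 28%, against 20.8% over all described genes. With 1 CPM required in both libraries 4 were higher and 2 lower of 23, against 8.55% higher and 7.69% lower over all genes passing this filter. The same shares over all genes are the background of the lists below. As the lists were chosen with earlier results known, their shares are a description only. GNE, the rate-limiting enzyme of sialic acid synthesis, was at 296 CPM untreated and 31.8 CPM refractory, 9.32-fold lower (95% interval 8.90 to 9.78). It lies on chromosome 9 (36217365 to 36249355), the chromosome of B4GALT1, with a neighbour median of -0.98. SLC35C1, the Golgi carrier of GDP-fucose, was at 117 and 14.3 CPM, 8.14-fold lower (95% interval 7.58 to 8.74), with a neighbour median of -0.60. Among the higher genes GMDS, the first enzyme of GDP-fucose synthesis, was at 12.7 and 42.6 CPM, and the nucleotide sugar carrier SLC35D2 at 28.8 and 76.0 CPM.

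Among 13 described core and blood group enzymes 1 was higher, 2 were lower and 10 between (median 0.14). The called share was 23.1%, near the 20.8% over all described genes. With 1 CPM required in both libraries 1 was higher and 1 lower of 12, since B3GALT5 drops out. C1GALT1, which makes core 1 (chosen after its values were seen), was at 195 and 173 CPM. B3GALT5, which builds the type 1 chain of Lewis a and CA19-9, was at 6.13 and 0.438 CPM, 13.997-fold lower (95% interval 9.43 to 21.7). A4GALT, the Gb3 synthase, was at 44.6 and 16.1 CPM, and B4GALNT1, the GM2/GD2 synthase, was higher at 3.07 and 15.2 CPM.

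Of 7 described sialidase, fucosidase and sialic acid O-acetylation genes 2 were higher, 1 lower and 4 between (median 0.19). NEU1, the lysosomal sialidase, was at 11.1 and 44.2 CPM in a region with a neighbour median of 1.21. FUCA1, the lysosomal fucosidase, was at 19.4 and 52.7 CPM with one of 0.95, and CASD1, the sialic acid O-acetyltransferase, at 66.2 and 31.3 CPM. Of 7 described glycan sulfotransferases 2 were higher, 3 lower and 2 between (median -0.92), but 2 alone reached 1 CPM in both libraries, 1 of them higher and 0 lower. GAL3ST1, the sulfatide enzyme, was at 0.327 and 5.31 CPM and CHST3 at 30.5 and 88.2 CPM, while GAL3ST4, CHST4 and GAL3ST2 were at 2.17 to 2.22 CPM in the untreated and 0.0674 to 0.506 CPM in the refractory tumour. Of 6 N-glycan branching enzymes 1 was lower, MGAT5, which adds the beta-1,6 branch (632 and 242 CPM, 2.61-fold, 95% interval 2.56 to 2.66), 0 were higher and 5 between (median 0.28). The called shares of these lists were 42.9%, 71.4% and 16.7% in the order given, against 20.8% over all described genes.

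Of the carriers of these sugars 5 were higher, 3 lower and 8 between of 16 described (median 0.36), or 3 higher and 3 lower of the 14 that reached 1 CPM in both libraries. The called share of the 16 was 50%, against 20.8% over all described genes. MUC1 was at 36.0 and 135 CPM, MUC13 at 9.08 and 123 CPM and MUC5AC, the secreted mucin of gastric surface cells, at 0.615 and 11.3 CPM. MUC16 was lower (109 and 2.93 CPM), as were MUC4 (44.8 and 17.0 CPM) and CEACAM6 (1107 and 446 CPM). Among 6 described lectins 2 were higher, 0 lower and 4 between (median 0.47), LGALS3 at 96.0 and 225 CPM and LGALS4, which passed through the refractory library alone, at 0.641 and 166 CPM. The called share of the lectins was 33.3%.

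**Figure D4:**
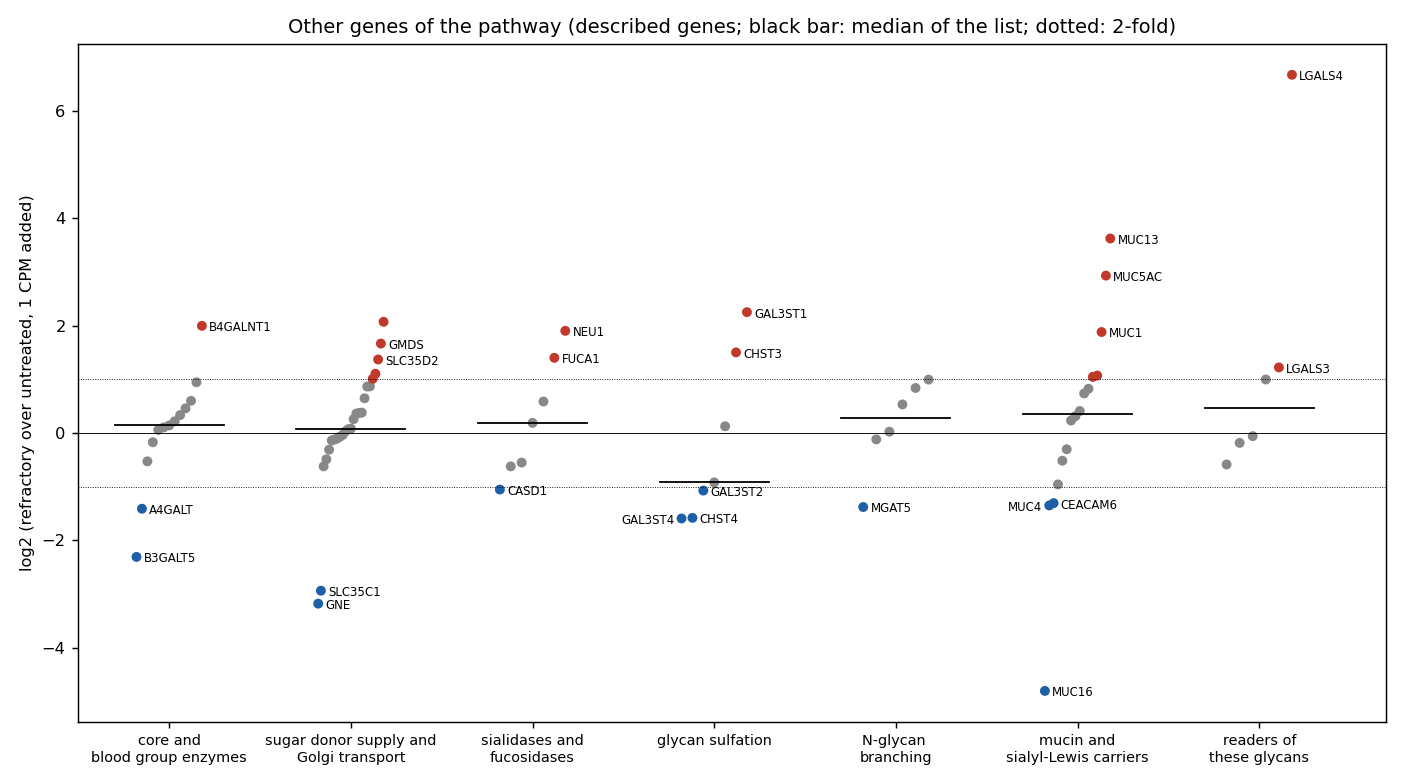
Log2 change (refractory over untreated, 1 CPM added) of the described genes of 7 other lists of the pathway, each point 1 gene, red for 2-fold higher, blue for 2-fold lower, grey for between, with the median of each list as a black bar. GNE and SLC35C1 stand apart below the other sugar donor genes, and MUC16 and LGALS4 are the extremes of the plot.

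The libraries held 75722114 and 59902712 counts. All 6 fixed markers of the epithelial line, ERBB2 included (7267 and 7975 CPM), were described and none was called. Of 6 fibroblast markers COL1A1 alone reached 1 CPM (2.92 and 1.80 CPM) and COL1A2, COL3A1 and DCN had 0 counts in both. Of 5 endothelial markers VWF alone did (1.39 and 0.202 CPM), and CDH5 had 0. Of 6 leukocyte markers 3 were described, 2 of them higher, CD68 (3.62 and 29.2 CPM) and ITGAM (0.419 and 3.32 CPM), while PTPRC had 5 and 17 counts and CD3E had 0. The summed level of the leukocyte list was 4.55 CPM untreated and 34.2 CPM refractory, and its part in the differences above was not tested.

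Of the 49 described members 8 had a p-value under 0.05 in the authors' deposited table, against 9.49% of all described genes: GCNT1, GCNT3, GCNT4, B4GALT1, B4GALT6, FUT9, ST3GAL6 and ST8SIA1. None of the called GALNT genes was among them, with p from 0.0690 for GALNT10 to 0.322 for GALNT3 in the authors' deposited table. Those p-values set 1 library against 1 and come from the same counts, so they add no separate measurement. Of the listed genes GCNT1, GCNT4, ST3GAL6 and ST8SIA1 also passed the 1 CPM minimum through the untreated library alone, where they are high. The share was not taken with both libraries required to reach 1 CPM, so no excess among the members is read from it.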

How the data were processed

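RNA-seq of 2 xenograft tumours was used, 1 untreated and 1 T-DM1-refractory. The labels name column-purified RNA and a TruSeq mRNA kit; strand-specific counting is not stated. The deposited table gives expected counts per gene, FPKM, a log2 fold change and a p-value, all made by the authors. The submitters' processing notes list STAR 2.7.0e, edgeR 3.26.8 and RSEM 1.2.28, with no roles. The authors' deposited log2 values differed from the log2 CPM ratio by at most 0.0194 over 13005 genes with more than 50 counts in both libraries.

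Expected counts were rounded and scaled to CPM with TMM factors (1.01 and 0.990; edgeR 4.0.16, R 4.3.3). A gene that reached 1 CPM in either library was described and called at 2-fold after 1 CPM was added. With 1 library a group there is no test. Intervals are exact 95% Clopper-Pearson and Poisson intervals, and a count of 0 was given a floor of 3 counts; both cover counting error only. The calculation was checked on simulated data.

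All called members, the most abundant of the others and those near 2-fold were named, and up to 3 genes of each list in each direction. Some list genes that this rule names are not reported here. Members and lists were chosen with earlier results of these data known. Positions are those of the table. Gene models came from GENCODE 29 and start windows from RefSeq (GRCh38.p14); of the 69 genes all 69 matched GENCODE, where 35 share exon bases with another gene, and 49 had a window. B3GNT1 was matched to B4GAT1 and B3GLCT to its older name. Protein sequences were not used here, and coding sequences were compared in their place. Alternatives covered scaling, pseudocount, low-count filter, unit, fold, length and position.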

Additional observations from a re-analysis of the deposited data

How the results depend on the processing

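No paired analysis was possible because each group has 1 library, and for the same reason no replicate could be left out. No called member changed direction in the 12 alternatives. With 1.5-fold in place of 2-fold, 19 members were higher and 18 lower (2755 and 2677 of all described genes). Initiation had 8 higher and 1 lower, branching 1 higher and 3 lower and extension 4 higher and 5 lower. The larger number of lower than higher calls in extension at 2-fold was thus nearly even at 1.5-fold. Fucosylation had 2 higher and 4 lower and sialylation 4 higher and 5 lower. With 4-fold, 2 members were higher and 6 lower (360 and 504 of all described genes). Initiation had 1 higher and 0 lower, branching 1 higher and 1 lower and extension 0 higher and 2 lower. Fucosylation had 0 higher and 1 lower and sialylation 0 higher and 2 lower. A pseudocount of 5 CPM left 821 of all described genes higher and 840 lower, 0 higher in extension and 1 lower in fucosylation, and B3GNT1, B3GNT9 and FUT3 were no longer called. A pseudocount of 0.1 CPM gave 2 lower in branching and 2 higher in fucosylation, and FUT6, FUT11, GCNT4 and ST3GAL3 were called in addition. With at least 10 CPM the members' median log2 was 0.29, extension had 0 higher, sialylation 1 lower, and 921 of all described genes were lower; fewer genes are tested there. Without a filter the median was -0.056. In FPKM extension had 0 higher and sialylation 1 higher, and B3GNT1, B3GNT9, GALNT6 and ST3GAL1 were no longer called. Extension also had 0 higher with total-count scaling and with the length trend removed, since B3GNT1 was lost. With the neighbour median removed, extension had 0 higher, initiation 2 higher and branching 2 lower: B3GNT1, B3GNT3, GALNT3 and GALNT6 were lost, GALNT3 and GALNT6 by a small margin (log2 0.97 and 0.96), and GCNT2 was gained. Where no value shows it, the cause was not tested. Depth limits the members under 1 CPM and the ratios of ST8SIA1 (2 counts) and GCNT4 (9 counts) in the refractory library.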
